A study of Mus musculus with 8 samples.

Results

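A group of 8 genes of the acute-phase response was followed in the retina: A2m, Serpina3n, Lcn2, Timp1 and Cp, which encode secreted proteins, and Bcl3, Cebpb and Cebpd, which encode nuclear regulators. They were found by their gene symbols among the 26824 genes of the count table. RNA sequencing covered 3 libraries that the labels call WT (WT 1 to WT 3) and 5 libraries labelled KO (KO 2 to KO 6), that is, from mice labelled as knockouts of the potassium channel subunit Kv8.2, the product of Kcnv2. Each library holds the total RNA of both retinas of 1 untreated mouse, 2 retinas in all, taken at 1 month of age. The strain, the sex and the design of the knockout allele are not given in the labels. The genes were chosen by name and function, and in part selected on the KO against WT levels of these same libraries, A2m having been listed as raised in every KO library. The differences of the 8 genes between KO and WT are therefore given as a description, with no p-value.

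The acute-phase response is the change in secreted proteins that follows inflammation or injury, best known from the liver, where interleukin 6 acts through the receptor gp130 and the transcription factor STAT3, and where the C/EBP factors and NF-kappaB switch on further genes. In the retina, cytokines of the same family, among them leukemia inhibitory factor (LIF), are released when photoreceptors are damaged and act on Müller glia, the radial support cells that span the tissue. A2m, Serpina3n, Lcn2, Timp1, Cp and the C/EBP genes are known members of the gene programme of such reactive glia. Kv8.2 itself forms no channel alone and joins Kv2 subunits in photoreceptors.

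Promoters in the RefSeq table (build GRCm38.p6) were matched for 6 of the 8 genes (Serpina3n, Bcl3, Lcn2, Cebpb, Timp1 and Cp, the last with 2 start sites, hence 7 promoters); A2m and Cebpd were the others. In the 250 bases before each start site, 3 sets of letters were searched on both strands: TTGCNNAA for C/EBP, TTCNNNGAA for STAT and GGGNNNNNCC for NF-kappaB. Among 32851 promoter windows of that length, these letters stood in 9.56%, 7.02% and 45.8%. The promoters of Serpina3n (chr12:104406458-104406707, plus strand), Bcl3 (chr7:19822756-19823005, minus strand) and Lcn2 (chr2:32387740-32387989, minus strand) are shown because the first and second genes were higher in most KO libraries and the other was not. Capitals mark every match, and overlapping matches run together.
Serpina3n: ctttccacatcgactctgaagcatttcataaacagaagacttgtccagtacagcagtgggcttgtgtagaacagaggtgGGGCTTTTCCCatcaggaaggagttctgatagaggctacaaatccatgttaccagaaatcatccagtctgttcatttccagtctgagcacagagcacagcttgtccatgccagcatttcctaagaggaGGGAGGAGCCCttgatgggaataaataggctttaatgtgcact
Bcl3: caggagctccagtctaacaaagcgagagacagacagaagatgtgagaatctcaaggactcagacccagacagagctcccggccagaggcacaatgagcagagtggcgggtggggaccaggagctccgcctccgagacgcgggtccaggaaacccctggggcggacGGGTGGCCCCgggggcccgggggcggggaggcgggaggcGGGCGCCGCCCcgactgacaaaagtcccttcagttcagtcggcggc
Lcn2: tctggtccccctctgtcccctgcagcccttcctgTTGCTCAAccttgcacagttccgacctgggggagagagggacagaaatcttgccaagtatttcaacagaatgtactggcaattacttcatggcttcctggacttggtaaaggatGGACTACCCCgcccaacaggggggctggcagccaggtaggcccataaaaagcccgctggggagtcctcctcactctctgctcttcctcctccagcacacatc
Serpina3n had matches only to the NF-kappaB letters, GGGCTTTTCC and its overlapping neighbour GGCTTTTCCC, and GGGAGGAGCC with GGAGGAGCCC. Bcl3 also matched those letters alone, at GGGTGGCCCC and at the overlapping GGGCGCCGCC and GGCGCCGCCC. Lcn2 had TTGCTCAA, a C/EBP match, and GGACTACCCC, an NF-kappaB match. A further C/EBP match, TTTTGCAA, lay in the promoter of Cp that starts at position 19956999 of chromosome 3. The STAT letters were in none of these 7 windows, which says only that they are absent from these bases. Of the 3 promoters shown, NF-kappaB letters were thus in all and C/EBP letters in that of Lcn2 alone. A match is a description of the sequence, and binding was not measured.

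The libraries held 17759146 to 25188870 counts, and 3 counts correspond to 0.130 to 0.164 CPM, that is, counts per 1000000 after scaling with TMM factors. Kcnv2 was at 519 CPM in WT 1, 550 in WT 2 and 526 in WT 3, and at 584 in KO 2, 447 in KO 3, 398 in KO 4, 408 in KO 5 and 409 in KO 6. Its log2 fold change was -0.24 over all KO libraries (edgeR adjusted p = 0.275), -0.04 for KO 2 and KO 3 (0.903) and -0.39 for KO 4 to KO 6 (0.000101). Its RNA was thus present in every library labelled KO, so that the genotype labels could not be checked by the level of this gene. KO 4, KO 5 and KO 6 stood apart from the other libraries: mitochondrial transcripts took 3.03% to 3.70% of their counts, against 6.52% in KO 2, 5.23% in KO 3 and 7.09% to 7.92% in WT. The series text says that 2 KO samples were left out of the authors' own comparison, without naming them. KO 3 held 50585 CPM of summed lens markers, against at most 1452 in any other library. WT 3 had 2132 counts of the Y-linked gene Ddx3y, against 1 to 3 in the other libraries. Xist, the RNA of the inactive X chromosome, had 9 counts in WT 3 and 30144 to 59443 in the others. By these genes WT 3 was male and every other library female, so sex was not balanced between the groups. Its part in the levels was not tested. The differences of the 8 genes and the counts of calls are therefore given for all KO libraries, for KO 2 and KO 3, and for KO 4 to KO 6; these share the WT libraries and are not independent.

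A2m, Bcl3, Cebpb and Cebpd were higher in every KO library than in any WT library, Serpina3n was higher in 4 of the 5, and Lcn2, Cp and Timp1 overlapped between the groups. Over all genes tested, 10.8% had every KO library above every WT library and 10.1% every KO library below. By mean level the differences were 5.77-fold for Bcl3, 4.39-fold for Cebpd, 3.39-fold for A2m, 2.74-fold for Serpina3n and 1.76-fold for Cebpb, while Cp was at 1.15-fold and Lcn2 at 0.764-fold. In 4 of the 8 genes (A2m, Serpina3n, Bcl3 and Cebpd) the highest library was KO 4.

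A2m encodes alpha-2-macroglobulin, a secreted protein that traps proteases of every class, and lies on mouse chromosome 6 (GRCm38 chr6:121635376-121679227, plus strand, protein coding). WT 1, WT 2 and WT 3 held 4.82, 4.09 and 5.23 CPM. In the libraries labelled KO it was 12.7 in KO 2, 9.26 in KO 3, 23.3 in KO 4, 17.6 in KO 5 and 17.2 in KO 6. The lowest KO library was thus 1.77-fold above the highest WT library, and KO 2 and KO 3 lay between WT and the remaining 3 libraries. The means were 4.71 ± 0.581 CPM in WT (SD, n = 3) and 16.0 ± 5.31 in KO (SD, n = 5). The fitted log2 fold change was 1.76 ± 0.27 (SE) over all KO libraries, 1.22 ± 0.20 for KO 2 and KO 3, and 2.04 ± 0.15 for KO 4 to KO 6. Without single libraries it ran from 1.59 to 1.91. Only 0.270% of the 31-base words of its exons occur in another gene, so that few reads could be shared.

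Serpina3n, on chromosome 12 (chr12:104406729-104414329, plus strand), encodes a secreted serine protease inhibitor, the mouse relative of human alpha-1-antichymotrypsin. WT 1, WT 2 and WT 3 were at 4.54, 5.31 and 3.86 CPM. It stood at 8.84 in KO 2, 5.13 in KO 3, 17.5 in KO 4, 17.1 in KO 5 and 14.01 in KO 6. KO 3 lay within the WT range, just under WT 2, KO 2 was above it, and KO 4 to KO 6 were the 3 highest libraries. The means were 4.57 ± 0.724 CPM (SD, n = 3) and 12.5 ± 5.38 (SD, n = 5), and the log2 fold change was 1.45 ± 0.37 (SE). It was 0.61 ± 0.26 for KO 2 and KO 3 and 1.82 ± 0.15 for KO 4 to KO 6, and 1.30 to 1.66 without single libraries. The gene belongs to a cluster of close copies: 21.6% of its 31-base words are shared, with Serpina3g, Serpina3f and Serpina3c among the partners, so that its counts are uncertain to that extent.

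Timp1, on the X chromosome (chrX:20870166-20874735, plus strand), encodes an inhibitor of matrix metalloproteinases. It had 3, 8 and 6 counts in WT 1 to WT 3 and 11, 10, 5, 12 and 8 in KO 2 to KO 6. On the CPM scale this was 0.164 to 0.376 in WT and 0.246 to 0.612 in KO, and the groups overlapped. It was the 1 gene of the 8 that did not pass the filter on low counts. With that filter lifted its log2 fold change was 0.67 ± 0.49 (SE), and it was not called.

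**Figure D1:**
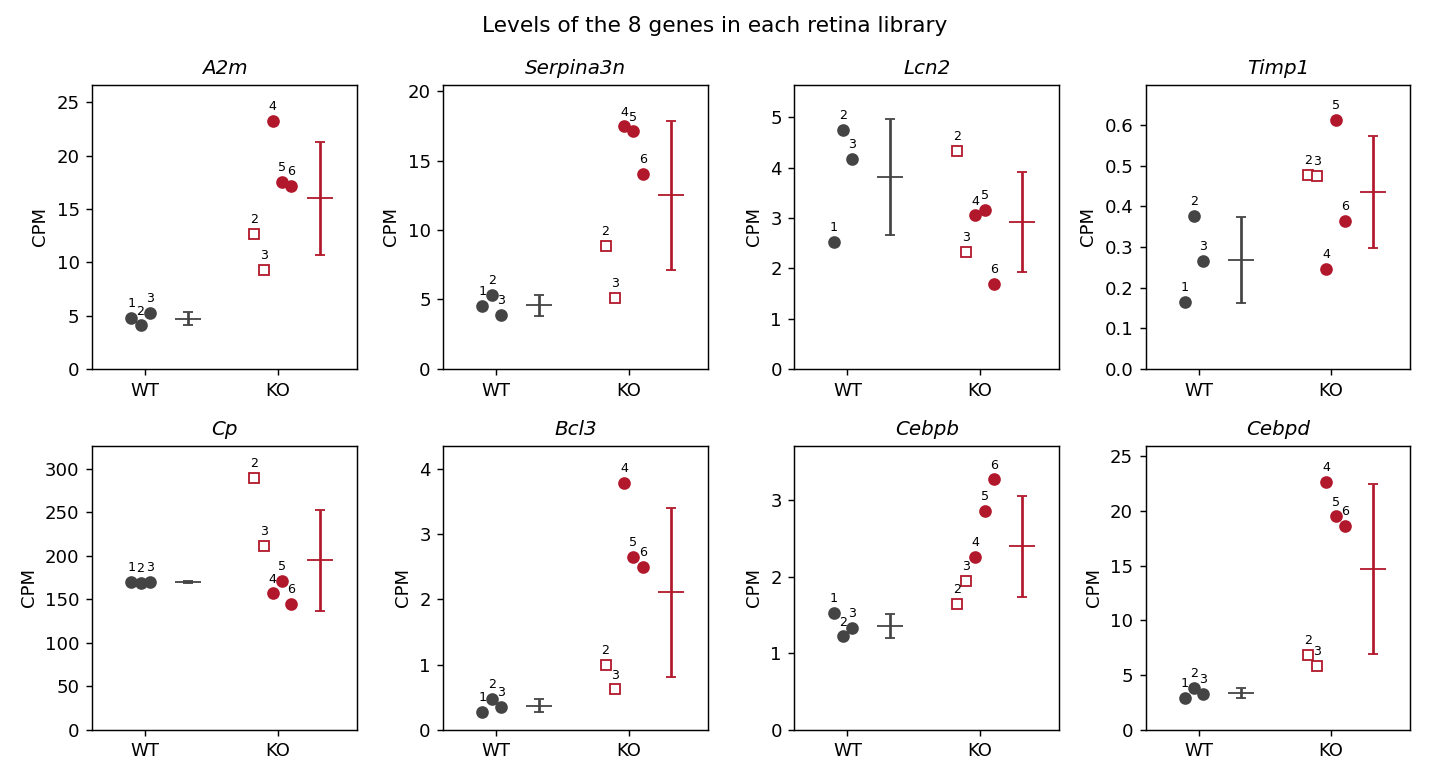
Each panel shows 1 gene in CPM (axis from 0), with a point per library numbered as in the text, WT in grey and KO in red, open squares for KO 2 and KO 3, and a bar for the mean ± SD beside the points (n = 3 WT, n = 5 KO). A2m, Bcl3, Cebpb and Cebpd have every KO point above the WT points, with A2m at 9.26 to 23.3 against 4.09 to 5.23 CPM, while Lcn2, Timp1 and Cp overlap.

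Lcn2 encodes lipocalin 2, which binds the iron carriers of bacteria and is among the genes most often used as a sign of reactive astrocytes; it lies on chromosome 2 (chr2:32384633-32388252, minus strand). The 3 WT libraries, in order, gave 2.52, 4.74 and 4.17 CPM, and KO 2 to KO 6 gave 4.33, 2.33, 3.05, 3.16 and 1.68. The highest library was WT 2, the lowest was KO 6, and 2 KO libraries lay below all WT libraries. The log2 fold change was -0.39 ± 0.30 (SE) over all KO libraries, -0.19 ± 0.35 for KO 2 and KO 3 and -0.55 ± 0.28 for KO 4 to KO 6. None of the 3 sets thus placed this gene above WT, in contrast to A2m and Serpina3n in the same libraries.

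Cp encodes ceruloplasmin, the copper-carrying ferroxidase that Müller glia and liver produce, and lies on chromosome 3 (chr3:19957054-20009145, plus strand). It was the most abundant of the 8 genes, also per length: per kilobase of exon it stood at 17.7 CPM in WT, against 2.21 for Serpina3n, 1.45 for Lcn2, 0.905 for Cebpb, 0.893 for Cebpd, 0.671 for A2m, 0.303 for Timp1 and 0.148 for Bcl3. Its WT libraries were nearly equal, at 170, 169 and 170 CPM. The KO libraries were at 289 in KO 2, 211 in KO 3, 157 in KO 4, 171 in KO 5 and 145 in KO 6. KO 2 and KO 3 were thus above WT, KO 4 and KO 6 below it and KO 5 just above it, whereas A2m, Bcl3 and Cebpd were higher in KO 4 to KO 6 than in KO 2 and KO 3. The log2 fold change was 0.20 ± 0.20 (SE) over all KO libraries, 0.56 ± 0.14 for KO 2 and KO 3 and -0.10 ± 0.06 for KO 4 to KO 6. It was 0.01 without KO 2, -0.05 with limma voom and 0.40 with offsets for GC content. The summed Müller glia markers were also highest in KO 2, at 7627 CPM against 5453 to 6239 in the other KO libraries, and their part in the level of Cp was not tested.

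Among the regulators, Bcl3 is an atypical IkappaB protein that binds NF-kappaB p50 and p52 dimers in the nucleus, and lies on chromosome 7 (chr7:19808462-19822770, minus strand). It was nearly silent in WT, with 5, 10 and 8 counts, or 0.274, 0.470 and 0.355 CPM. It had 23 counts in KO 2 (0.997 CPM), 13 in KO 3 (0.617), 77 in KO 4 (3.79), 52 in KO 5 (2.65) and 55 in KO 6 (2.50). The lowest KO library was 1.31-fold above the highest WT library, a step of 3 counts between KO 3 and WT 2, whereas KO 4 to KO 6 were 8.14-fold above the WT mean. The log2 fold change was 2.50 ± 0.61 (SE), 1.12 ± 0.51 for KO 2 and KO 3 and 2.99 ± 0.34 for KO 4 to KO 6. An antisense gene, Gm16175, overlaps its exons over 161 bases, and the labels do not say whether strand was used in counting.

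Cebpd encodes C/EBP delta, a transcription factor whose own gene is switched on early in the acute phase, and lies on chromosome 16 (chr16:15887286-15891031, plus strand). WT 1, WT 2 and WT 3 had 2.90, 3.85 and 3.28 CPM. In KO 2 and KO 3 it was at 6.85 and 5.84, and in KO 4, KO 5 and KO 6 at 22.6, 19.5 and 18.6. The KO libraries therefore formed a lower pair and an upper group of 3, and the lower pair was still 1.52-fold or more above every WT library. The means were 3.34 ± 0.478 CPM (SD, n = 3) and 14.7 ± 7.76 (SD, n = 5), and the log2 fold change was 2.13 ± 0.46 (SE). It was 0.92 ± 0.21 for KO 2 and KO 3, 2.59 ± 0.14 for KO 4 to KO 6, and 1.92 to 2.34 without single libraries. Its exons overlap those of Spidr on the other strand over 562 bases, and Spidr was at 5.91 to 7.23 CPM in WT and 6.43 to 7.98 in KO (log2 fold change 0.21).

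Cebpb, on chromosome 2 (chr2:167688915-167690418, plus strand), encodes C/EBP beta, the interleukin 6-responsive partner of C/EBP delta. The WT libraries, in order, were at 1.53, 1.22 and 1.33 CPM, and KO 2 to KO 6 at 1.65, 1.95, 2.26, 2.86 and 3.28. All KO libraries were higher, but the lowest was only 1.07-fold above the highest WT library, and the counts were 26 to 30 in WT and 38 to 72 in KO. The log2 fold change was 0.82 ± 0.27 (SE), 0.40 ± 0.31 for KO 2 and KO 3 and 1.04 ± 0.25 for KO 4 to KO 6. It was 0.46 with offsets for the GC content of the transcript, which at 67.2% is the highest of the 8 genes. The gene Peds1 (also known as Tmem189) overlaps it over 312 exonic bases on the other strand and was at 13.9 to 17.6 CPM in WT and 16.7 to 21.6 in KO (log2 fold change 0.30).

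**Figure D2:**
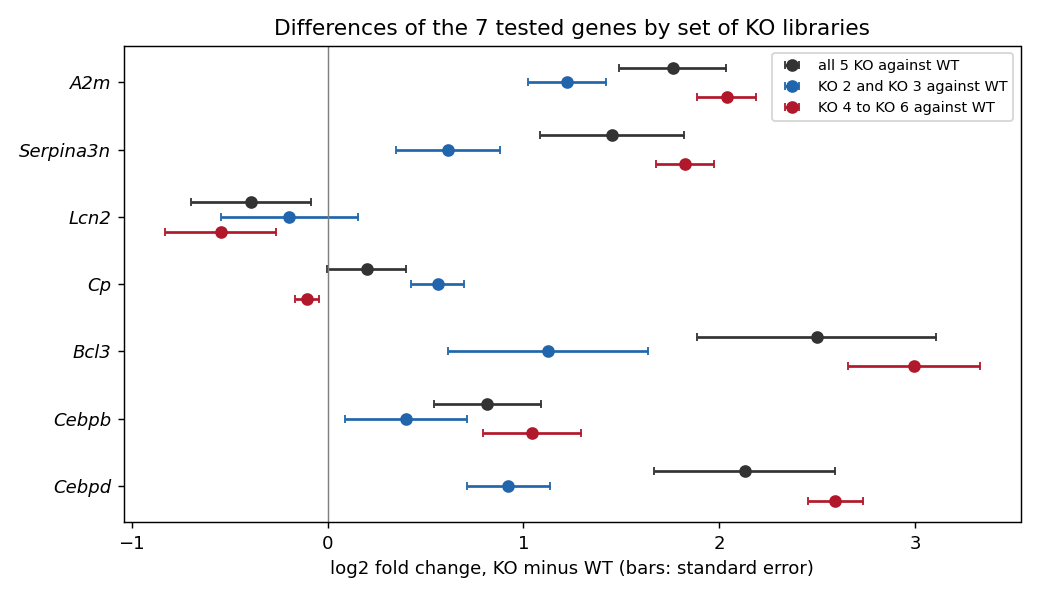
The horizontal axis is the fitted log2 fold change, KO minus WT, of the 7 genes that passed the filter on low counts, with bars for the standard error; dark points use all 5 KO libraries, blue points KO 2 and KO 3, and red points KO 4 to KO 6, all against the same 3 WT libraries. For A2m, Serpina3n, Bcl3, Cebpb and Cebpd the red point lies to the right of the blue one, as for Cebpd at 2.59 against 0.92, while Cp has 0.56 for KO 2 and KO 3 and -0.10 for KO 4 to KO 6.

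Of the 7 genes tested, edgeR's quasi-likelihood test called 4 (A2m, Serpina3n, Bcl3 and Cebpd, all higher in KO), where 7.58% of all genes tested were called, 4.74% higher and 2.84% lower; nothing is read from this count, since the genes were chosen with this contrast in view. With KO 2 and KO 3 alone against WT only A2m was called (0.891% of all genes), and with KO 4 to KO 6 alone 5 genes were, Cebpb being added (42.8% of all genes). The median log2 fold change of the 7 was 1.45 over all KO libraries, 0.61 for KO 2 and KO 3 and 1.82 for KO 4 to KO 6, beside 0.00 for all genes in each. The mitochondrial share was lowest in KO 4 to KO 6, where A2m, Serpina3n, Bcl3, Cebpb and Cebpd were highest, and its part in their levels was not tested. The call of A2m was lost without WT 1 or WT 2. The calls of Serpina3n, Bcl3 and Cebpd were kept when KO 2 or KO 3 was left out and lost without any other single library, while their log2 fold changes stayed above 1.30, 2.18 and 1.92.

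Profiles over the 8 libraries were compared by the mean absolute difference of log2 CPM after each gene's WT mean was subtracted; they share libraries and depth and are described without a test. Among the 8 genes the closest pair was Bcl3 and Cebpd, which differed by 0.14 on average. A2m differed by 0.34 from Serpina3n and by 0.38 from Cebpd, and by 1.44 from Lcn2. By this measure Bcl3, a regulator of NF-kappaB, and Cebpd had a similar course from WT through KO 2 and KO 3 to KO 4. Bcl3 had only 5 to 10 counts in WT, where the prior count of 2 in log2 CPM narrows its differences. In CPM, KO 4 to KO 6 were 8.14-fold above the WT mean for Bcl3 and 6.05-fold for Cebpd. Bcl3 was too low for the comparison with other genes that follows.

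Among 14694 genes whose mean log2 CPM reached 1, the genes closest to A2m were Alpk2 (difference 0.16), which encodes a kinase of the alpha class, Pcolce (0.16), an enhancer of procollagen processing, Tnnt2 (0.20), cardiac troponin T, Klhl29 (0.21) and Bst1 (0.22). Serpina3n was the closest of the other members to A2m, at rank 34, and Cebpd came at rank 44. The genes closest to Serpina3n were Jak3 (0.14), a cytokine receptor kinase, Dpysl2 (0.17), Tcea3 (0.20), Atf3 (0.22), a transcription factor of the stress response, and Flnc (0.22). For Cebpd they were Pcolce (0.29), Fgf2os (0.33), Fcamr (0.33), Tnnt2 (0.34) and A2m (0.38), and Serpina3n followed at rank 9. Pcolce and Tnnt2 thus stood among the 5 closest genes of both A2m and Cebpd, while Lcn2 was at rank 13195 or beyond for all 3 genes.

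**Figure D3:**
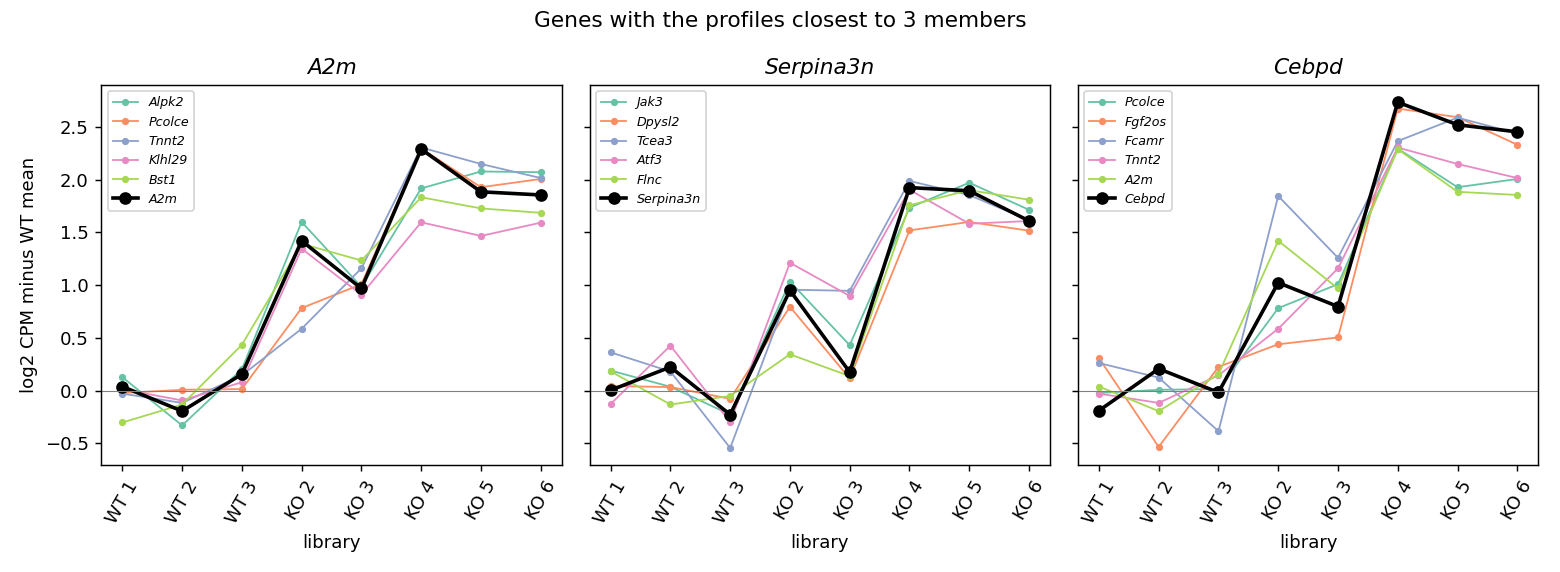
Each panel follows 1 of the 8 genes (black) and the 5 genes with the closest profiles across the libraries on the horizontal axis; the vertical axis is log2 CPM minus the gene's own WT mean. Every line has its highest point in KO 4 to KO 6, and KO 2 lies above KO 3 for A2m (1.42 against 0.97) and Serpina3n.

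The wider pathways were described with 154 further genes in 10 lists, of which 125 were counted and 105 passed the filter on low counts. Of these, 16 were called higher and 3 lower in KO over all libraries (edgeR's quasi-likelihood test, adjusted over all genes), 18.1% beside 7.58% of all genes, and their median log2 fold change was 0.26. With KO 2 and KO 3 alone, 5 were called higher and 0 lower, where 0.624% and 0.267% of all genes were. With KO 4 to KO 6 alone, 39 were higher and 15 lower, where 21.7% and 21.1% of all genes were. Stat3, Osmr, Gfap and S1pr3 kept their calls whichever library was left out, and the other 15 lost theirs in at least 1 such fit. Calls lost were 14 without WT 1, 15 without WT 2, 13 without WT 3, 12 without KO 4, 12 without KO 5 and 9 without KO 6, and 0 without KO 2 or KO 3.

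In the list of gp130 cytokines, their receptors and STAT3, which also holds kinases and inhibitors of the pathway and the genes of interleukin 1 beta, tumour necrosis factor and their receptors, 7 of 19 tested genes rose and none fell over all libraries, and with KO 4 to KO 6 alone 12 of 19 were higher and 1 lower. Over all genes, 4.74% were higher and 2.84% lower in the first fit, and 21.7% and 21.1% in the second. Lif, the ligand named above, was at 0.177 to 0.493 CPM in WT and 0.855 to 2.55 in KO, with a log2 fold change of 2.56 ± 0.46 (SE, edgeR adjusted p = 0.0147). Osmr, the oncostatin M receptor, rose from 5.33 ± 0.785 CPM (SD, n = 3) to 13.5 ± 1.57 (SD, n = 5), by 1.34 ± 0.15 (edgeR adjusted p = 0.00193). Stat3 itself was at 52.9 to 60.8 CPM in WT and 108 to 163 in KO, a log2 fold change of 1.23 ± 0.13 (edgeR adjusted p = 0.00139). All KO libraries lay above all WT libraries for these 3 genes. Cntfr, the receptor for ciliary neurotrophic factor, rose by 0.87, Il6st, which encodes gp130, by 0.70 and Tnfrsf1a, a receptor for tumour necrosis factor, by 0.60 (edgeR adjusted p = 0.0254, 0.00897 and 0.0284). With offsets for GC content Tnfrsf1a was at 0.44 and was not called (edgeR adjusted p = 0.0608). Lifr, the receptor for LIF, named after its values were seen, rose by 0.45 (edgeR adjusted p = 0.0280). Jak1 and Pias3, the most abundant genes of the list that were not called, were at 0.13 and -0.11. With KO 2 and KO 3 alone, Osmr (1.26) and Stat3 (1.02) were called.

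Of the genes known to be raised in reactive astrocytes of many kinds, 4 of 8 tested rose over all libraries, and 5 of 7 were called higher with KO 4 to KO 6 alone and 3 of 7 with KO 2 and KO 3 alone. The shares of all genes called higher in these 3 fits were 4.74%, 21.7% and 0.624%. Gfap, the intermediate filament of reactive glia, was at 19.1 to 20.7 CPM in WT and 47.3 to 78.2 in KO, a log2 fold change of 1.67 ± 0.15 (SE, edgeR adjusted p = 0.000382). It was as large in KO 2 and KO 3 (1.65) as in KO 4 to KO 6 (1.68), unlike the change of Cebpd or Bcl3; the difference between genes was not tested. S1pr3, a receptor for sphingosine 1-phosphate, rose by 0.95 ± 0.11 (edgeR adjusted p = 0.00247), and Osmr counted here too. Vim rose by 1.18 ± 0.31 (edgeR adjusted p = 0.0484) with KO 3 far above the rest, and was at 0.82 without that library. Cd44 (1.16, edgeR adjusted p = 0.0547) and Hspb1 (0.38) were not called over all libraries with this test; with offsets for GC content Cd44 was (1.26, edgeR adjusted p = 0.0288).

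The relatives of A2m included C4b, a complement component of the same protein family, which rose from 6.07 to 12.8 CPM in WT to 21.8 to 61.9 in KO (log2 fold change 2.36 ± 0.36 SE, edgeR adjusted p = 0.00759). Lrp1, the endocytic receptor that clears alpha-2-macroglobulin with its bound protease, rose by 0.71 ± 0.18 (edgeR adjusted p = 0.0403), and A2ml1 was at -0.21. Thus 2 of 3 tested genes of this list rose, and C4b lost its call only without WT 2 (edgeR adjusted p = 0.0609) among the fits that leave out 1 library. Of the 31-base words of C4b, 48.3% occur in other genes, so that its counts are uncertain to that extent. With KO 2 and KO 3 alone 1 of the 3 genes was called, and with KO 4 to KO 6 alone 2 were, all higher. Over all genes, 4.74% were called higher with all libraries, 0.624% with KO 2 and KO 3 and 21.7% with KO 4 to KO 6. With offsets for GC content Lrp1 was at 0.50 and was not called (edgeR adjusted p = 0.0543). Of the Serpina3 cluster only Serpina3k was tested besides Serpina3n, at 0 to 0.986 CPM in WT and 0 to 4.90 in KO, and it was not called.

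Of the other acute-phase genes, 5.56% were called over all libraries, beside 7.58% of all genes. Of 34 listed, 28 were in the table and 18 were tested; Serping1, the inhibitor of complement C1, rose from 8.47 ± 0.846 CPM (SD, n = 3) to 13.1 ± 1.70 (SD, n = 5), by 0.63 (edgeR adjusted p = 0.0313), and none fell over all libraries. With KO 4 to KO 6 alone 1 of 18 was higher and 2 were lower, where 21.7% and 21.1% of all genes were, and with KO 2 and KO 3 alone none of 14 was called, where 0.891% of all genes were. The metallothioneins Mt1 and Mt2 were at -0.33 and -0.45 and were not called. Typical liver products were highest in KO 5: Hp at 3.73 CPM, Fga at 4.59, Fgb at 4.54, Serpina1b at 4.95 and C3 at 13.1. The same library held 131 CPM of summed hepatocyte markers, against 67.6 in KO 6 and 19.2 to 36.8 in the others, and 75.5 CPM of Alb, the gene of serum albumin. In KO 6, Ttr of that list gave 54.1 of the 67.6 CPM. Alb was at 6.87 CPM there, within the WT range of 0 to 11.4. A2m, which the liver also makes, was at 17.6 CPM in KO 5, between KO 6 (17.2) and KO 4 (23.3). KO 4 held 31.8 CPM of hepatocyte markers, within the WT range. Of these, Ttr gave 30.2, above its own WT range of 17.7 to 22.6, while Alb was at only 0.0492 CPM in KO 4. The part of liver RNA in the level of A2m was not tested.

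Among the lipocalins and Lcn2 receptors, 1 of 6 tested genes rose and 1 fell over all libraries; 1 was higher and 2 were lower with KO 4 to KO 6 alone. Slc22a17, a lipocalin 2 receptor, rose by 0.50 (edgeR adjusted p = 0.0383), and Ptgds, the lipocalin-type prostaglandin D synthase, fell from 148 ± 17.1 CPM (SD, n = 3) to 92.9 ± 21.1 (SD, n = 5), by 0.67 on the log2 scale (edgeR adjusted p = 0.0392). Lrp2, another endocytic receptor for lipocalin 2, was at -0.55 and was not called. In the list of Timp genes and metalloproteinases, 2 of 17 rose over all libraries (7 higher and 2 lower with KO 4 to KO 6 alone): Adamts1, a matrix protease, by 0.74 (edgeR adjusted p = 0.0315) and Cd63, which binds TIMP-1 at the cell surface, by 0.40 (edgeR adjusted p = 0.0229). With offsets for GC content Cd63 was at 0.20 and Slc22a17 at 0.29, and neither was called (edgeR adjusted p = 0.153 and 0.106). Timp3 (-0.08) and Timp2 (0.33), far more abundant than Timp1 in these libraries at 128 and 89.4 CPM in WT, were not called over all libraries. Neither list had a call with KO 2 and KO 3 alone. These counts stand beside 4.74% higher and 2.84% lower over all genes, and 21.7% and 21.1% with KO 4 to KO 6 alone.

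Of the 17 tested genes of iron and copper handling, the pathway that ceruloplasmin serves, 1 was called over all libraries, a share of 5.88% beside 7.58% of all genes. This was the copper pump gene Atp7b, which fell from 22.3 ± 1.42 CPM (SD, n = 3) to 16.4 ± 1.68 (SD, n = 5), a log2 fold change of -0.44 (edgeR adjusted p = 0.0431). The ferritin genes Fth1 and Ftl1 were at 0.00 and 0.33. With KO 4 to KO 6 alone, 4 of 16 tested genes of this list were higher and 5 lower, Ftl1 being among the former at 0.37 (edgeR adjusted p = 0.00296). In the NF-kappaB and IkappaB family, 0 of 14 tested genes rose and 1 fell over all libraries, Chuk, a kinase subunit of the pathway, by 0.56 (edgeR adjusted p = 0.0373). With offsets for GC content it was at -0.33 and was not called (edgeR adjusted p = 0.140). Tnfaip3, Ikbkg and the other genes of the family did not pass the test there, Tnfaip3 being at 0.09 and Ikbkg at -0.17. With KO 4 to KO 6 alone, 8 of the 14 were called higher and 2 lower (the median of the list was 0.44), where 21.7% and 21.1% of all genes were called. Tnfaip3 was at 0.16 and Ikbkg at -0.25 in that fit (edgeR adjusted p = 0.0457 and 0.00772). None of 4 other tested genes of the C/EBP family was called over all libraries, and 1 was called lower with KO 4 to KO 6 alone, with Cebpz at 0.18 and Ddit3 at 0.05 over all libraries. With KO 2 and KO 3 alone none was called in these 3 lists.

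**Figure D4:**
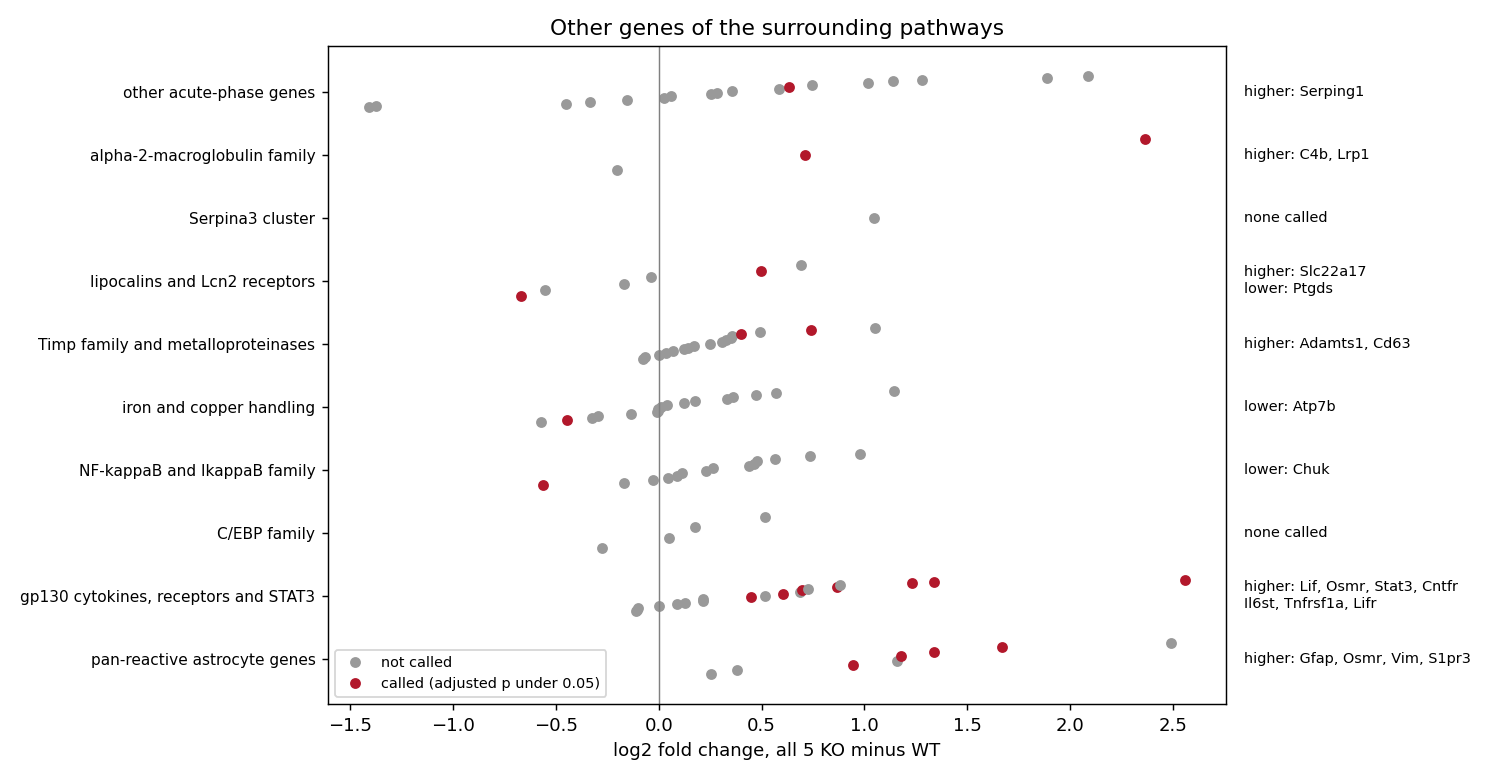
Each point is a tested gene of 1 of 10 lists, placed by its log2 fold change over all 5 KO libraries against WT; red points passed edgeR's adjusted threshold of 0.05 and are named at the right, and the spread of points within a row has no meaning. The list of gp130 cytokines, receptors and STAT3 has 7 red points, all above 0, up to Lif at 2.56, while the NF-kappaB list has 1, below 0, and the C/EBP list none.

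The cell type markers show what else moved with these genes; over all libraries 4.74% of all genes were called higher and 2.84% lower. Summed Müller glia markers were at 4802 to 5025 CPM in WT and 5453 to 7627 in KO. Of the 9 genes 3 were called higher, among them Clu (1.12) and Sox9 (0.62). Clu was at 314 to 352 CPM in WT and 659 to 783 in KO, and Apoe at 533 to 595 and 570 to 921. Glul, the most abundant of the 9, overlapped between the groups at 2372 to 2548 and 2332 to 3650. Aqp4 also overlapped, at 131 to 141 and 125 to 197. Retinal astrocyte markers were at 53.2 to 56.1 CPM in WT and 96.4 to 130 in KO, of which Gfap was the 1 gene of 5 called. Gfap gave 19.1 to 20.7 CPM of that sum in WT and 47.3 to 78.2 in KO, the larger part of its rise. S100b was lower on average in KO (7.46 against 8.21 CPM in WT), and Pdgfra, Aldh1l1 and Pax2 were higher on average. Microglia markers were at 48.9 to 54.1 CPM in WT and 56.9 to 76.0 in KO (2 of 8 called higher), and those of endothelium and pericytes at 305 to 315 and 391 to 483 (2 of 8 called higher). In all 4 sums every KO library was above every WT library. In such bulk samples a different number of cells of a type and a different amount of RNA per cell cannot be told apart, and the part of these cell types in the levels of the 8 genes was not tested. The first 3 of these sums were largest in KO 2. That of endothelium and pericytes was nearly equal in KO 2 (482 CPM), KO 4 (483) and KO 5 (483). A2m, Serpina3n, Bcl3 and Cebpd, in contrast, were lower in KO 2 than in KO 4 and KO 5.

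Markers of blood cells that also make Lcn2 and Timp1 were low. Of 9 neutrophil markers 2 were measured, summing to 0.0887 to 1.86 CPM in WT and 0 to 0.227 in KO. Infiltrating macrophage markers summed to 7.37 to 8.49 CPM in WT and 3.00 to 5.42 in KO, and 5 of 6 were measured. The part of such cells in the levels of the 8 genes was not tested. Rod markers, at 39044 to 42208 CPM in WT and 33956 to 50549 in KO, identified the tissue as retina in every library. Cone markers stood at 1025 to 1280 and 822 to 1264 (2 of 6 called lower, beside 2.84% of all genes). Fibroblast and choroid markers (26.7 to 34.5 CPM in WT, 25.6 to 47.3 in KO) and pigment epithelium markers (67.5 to 81.3 and 56.4 to 87.2) overlapped between the groups. Markers of the ciliary body and iris were at 39.2 to 47.5 CPM in WT, 46.3 in KO 2 and 39.1 in KO 3, and at 19.1 to 24.96 in KO 4 to KO 6, the libraries with the highest A2m and Cebpd.

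**Figure D5:**
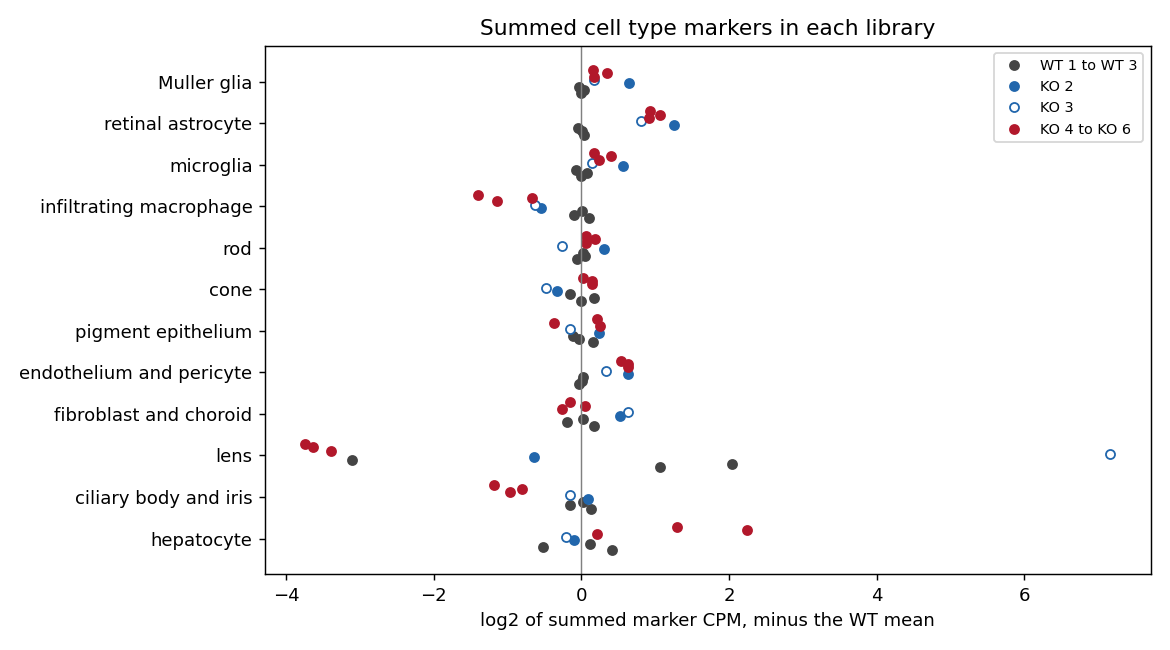
Each row is a list of cell type markers, and each point is 1 library, placed by the log2 of its summed CPM minus the WT mean; WT is grey, KO 2 filled blue, KO 3 open blue and KO 4 to KO 6 red, and neutrophil markers are left out because sums of 0 have no logarithm. Retinal astrocyte sums (96.4 to 130 CPM in KO) and endothelium and pericyte sums lie right of the WT points in every KO library. Of the astrocyte sums in KO, Gfap gave 47.3 to 78.2 CPM. The lens sum of KO 3 (50585 CPM) stands far from all others.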

How the data were processed

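Total RNA came from retinas dissected into a preserving solution and isolated on a column kit (labels' protocols). The authors deposited 1 table of whole-number counts per gene for 8 libraries; Trim Galore, Salmon 1.10.2, DESeq2 and the build GRCm38 are named, per the submitters' processing notes, without their roles, so the counts may be rounded estimates. Every gene has at least 16 counts in total. Counts were tested with edgeR 4.0.16 in R 4.3.3 (TMM factors, filterByExpr, quasi-likelihood F-test, Benjamini-Hochberg threshold 0.05), all 8 libraries in 1 fit of KO against WT. On simulated counts with 19694 genes tested, 115 of 200 genes changed 2-fold (57.5%) and 6 unchanged genes were called. CPM are counts per 1000000 of the TMM-scaled library size, and CPM per kilobase use the merged exon length of GENCODE M21 (GRCm38). Alternatives were DESeq2 1.42.0 (test and size factors), limma 3.58.1 voom with quality weights, library size scaling, 2 other filters, offsets for GC content (available for 89.4% of tested genes), sets of KO libraries, each library left out, and replicate numbers as a block.

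The 8 genes and all gene lists were chosen with earlier results of these data known. 1 gene of the pathway lists is not reported here. Outside the 8, the text names Kcnv2, up to 6 called genes of each pathway list by size of change with up to 2 uncalled genes of highest level, and for A2m, Serpina3n and Cebpd the 5 genes of closest profile; Spidr and Peds1 are named for overlap, and the liver genes and markers beside the values they go with. Replicate numbers occur in both groups only for 2 and 3, with nothing in the labels that ties such animals to each other; deviations of same-numbered libraries correlated at -0.19, so they were not taken as pairs. Each library is from 1 mouse, so p-values measure the spread between mice. Replicates of a group differed by more than sampling noise (chi-square per degree of freedom of at least 5.54). It was 5.54 to 6.67 between KO 4, KO 5 and KO 6, and 7.93 to 17.2 within WT. Pairs of KO libraries with KO 2 or KO 3 gave 42.1 to 113, so the KO libraries were not a uniform group. Depth limits the lowest genes: below 3 counts, 0.130 to 0.164 CPM, a gene cannot be told from 0.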

Additional observations from a re-analysis of the deposited data

Results flagged for a closer look

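Among the 5 KO libraries, a level was set apart when its gap to the nearest library was more than 0.71 of the whole range on the log2 CPM scale, with a prior count of 2 for genes and 0.1 CPM added to sums (Dixon's limit for 5 values). Of 58 levels examined, 6 met this, where chance gives about 2.9, and none was one of the 8 acute-phase genes. KO 3 stood apart for Vim (gap 0.752 of the range, 320 CPM against 148 in the nearest library), for Cd44 (0.824, 38.4 against 16.9 CPM) and for the summed lens markers (0.716, 50585 against 227 CPM). It was also lowest for Tnfrsf1a (0.744, 9.73 against 11.7 CPM), and that gene's call over all libraries was lost in 6 of the 8 fits that left out 1 library, KO 3 not being among them. KO 2 stood apart for Cebpz (0.754, 61.6 against 50.5 CPM) and for Hspb1 (0.849), which was lowest there at 3.86 against 5.90 CPM. Vim and Cd44 are from the list of reactive astrocyte genes, and the part of lens RNA in their levels in KO 3 was not tested.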

How the results depend on the processing

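The number of genes called was 1529 with edgeR on all libraries, 3066 with DESeq2, 8248 with limma voom, 180 for KO 2 and KO 3, 8420 for KO 4 to KO 6, and 132 to 3993 with 1 library left out. Library size scaling called 567 higher and 787 lower, against 956 and 573 with TMM. Of the 8 genes, 1 was called for KO 2 and KO 3 and 0 to 5 with 1 library left out. Of the pathway genes, 30 were called with DESeq2, 53 with limma voom, 5 for KO 2 and KO 3, 54 for KO 4 to KO 6, and 4 to 33 with 1 library left out; offsets for GC content gave 14 higher and 2 lower, against 16 and 3. Within WT 2, WT 3, KO 2 and KO 3, the replicate number as a block gave 52 genes, 0 of the 8 genes and 4 pathway genes, and the same libraries without the block 14, 0 and 0. The crossed block, chosen after seeing the data, gave 524, 1 and 11. For the 7 tested members, 118 of 140 alternative values moved by less than 1 SD and 22 by more; for the other named genes 567 of 735 kept their side of the threshold, 136 lost the call and 32 gained one. None of these members and named genes changed direction where it was called. Causes were not tested.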
